A study of Danio rerio with 8 samples.

Results

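The genes described here are 7 cartilage and bone genes, taken by their Ensembl identifiers, out of 35117 genes in the count files: sox9a (ENSDARG00000003293), sox9b (ENSDARG00000043923), col2a1a (ENSDARG00000069093), col10a1a (ENSDARG00000054753), runx2a (ENSDARG00000040261), runx2b (ENSDARG00000059233) and sp7 (ENSDARG00000019516). sox9a and sox9b, and runx2a and runx2b, are pairs of duplicated genes of the fish genome. Cartilage cells arise when the transcription factor Sox9, together with Sox5 and Sox6, turns on the genes of the cartilage matrix, of which type II collagen is the main fibre. Bone-forming osteoblasts depend on the transcription factors Runx2 and, further along, Sp7 (osterix). Type X collagen is the collagen of hypertrophic cartilage in mammals, and in fish it is also made by osteoblasts.

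Polyadenylated RNA was measured in Tg(fli1a:EGFP) zebrafish, whose EGFP reporter is under control of the fli1a promoter, to test protocols for RNA from few sorted cells. Sorted run 2 held 20000 EGFP positive cells per RNA sample at 3 days, isolated with the RNeasy plus micro kit (Q_2) or the RNAqueous micro kit (A_2), and each RNA was made into technical replicate libraries a and b. Sorted run 1 held 20000 cells per RNA sample of the same age, with 1 library per kit (Q_1 and A_1). The whole embryo group held RNA from 1 unsorted embryo per kit at 5 days (Q_unsorted and A_unsorted). All sorted samples came from the same pool of embryos, for which the methods give a range of ages that holds that of the labels. The whole embryos were sequenced with run 2 but had as many amplification cycles as run 1, which was fewer than in run 2. All groups carry the transgene. In this line the promoter labels blood vessels and also neural crest-derived cells of the jaw cartilage and mesenchyme, and the gate used fluorescence without a second marker, so the sort is not 1 cell type. The sorted samples of run 2 also put a smaller volume of RNA into cDNA synthesis than those of run 1 and the whole embryos. In the comparison of run 2 with whole embryos, sorting, age, amplification cycles and this volume cannot be told apart. In that of run 1, sorting, age and sequencing run cannot. The replicates are portions of 1 pool or single embryos, so p-values measure only the spread between these samples.

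Reads on genes ranged from 10763174 to 19537939 per library, and 3 reads, the floor of detection, were worth 0.154 to 0.279 counts per 1000000 reads on genes (CPM). FLI1, the transcription factor gene whose promoter drives the reporter, was at 268 to 334 CPM in run 2, 398 and 363 CPM in run 1 and 24.8 and 30.7 CPM in whole embryos. Of the endothelial markers, kdrl, a receptor for vascular growth factor, was at 29.0 to 59.1 CPM in run 2, 46.5 and 32.2 CPM in run 1 and 12.2 and 18.2 CPM in whole embryos. The junction gene cdh5 was at 19.7 to 25.7 CPM in run 2, 34.3 and 28.7 CPM in run 1 and 11.3 and 15.6 CPM in whole embryos. Normalization factors of the 4 sorted RNA samples ran from 0.823 in A_1 to 1.17 in A_2.

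All 7 genes were higher in sorted cells than in whole embryos in both runs. In run 2 the log2 fold changes ran from 1.05 for sox9b to 4.70 for runx2a, and in run 1 from 0.99 for sox9b to 4.09 for sox9a. Of all 21377 genes tested in run 2 against whole embryos, 23.5% were called higher and 28.2% lower by edgeR's quasi-likelihood test at a Benjamini-Hochberg adjusted p under 0.05. Of 20254 genes tested in run 1 against whole embryos, 17.3% were called higher. All 7 genes passed the filter on low counts in both comparisons, but runx2a did so only through the sorted samples, where it is high. Its 4 and 6 reads in the whole embryos were under what the filter asks for. The lowest sorted library lay above the highest whole embryo library for each of the 7 genes, which held for 20.3% of all tested genes. The median log2 fold change of the 7 genes was 3.71 in run 2 and 2.98 in run 1, beside medians of -0.00 and -0.06 over all tested genes. The comparisons of run 2 and of run 1 share their whole embryo libraries and are given side by side. Without A_2 the genes called in run 2 fell to 5572, against 11045 with it. In bulk RNA, fewer cells of a type and less RNA per cell cannot be told apart.

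**Figure D1:**
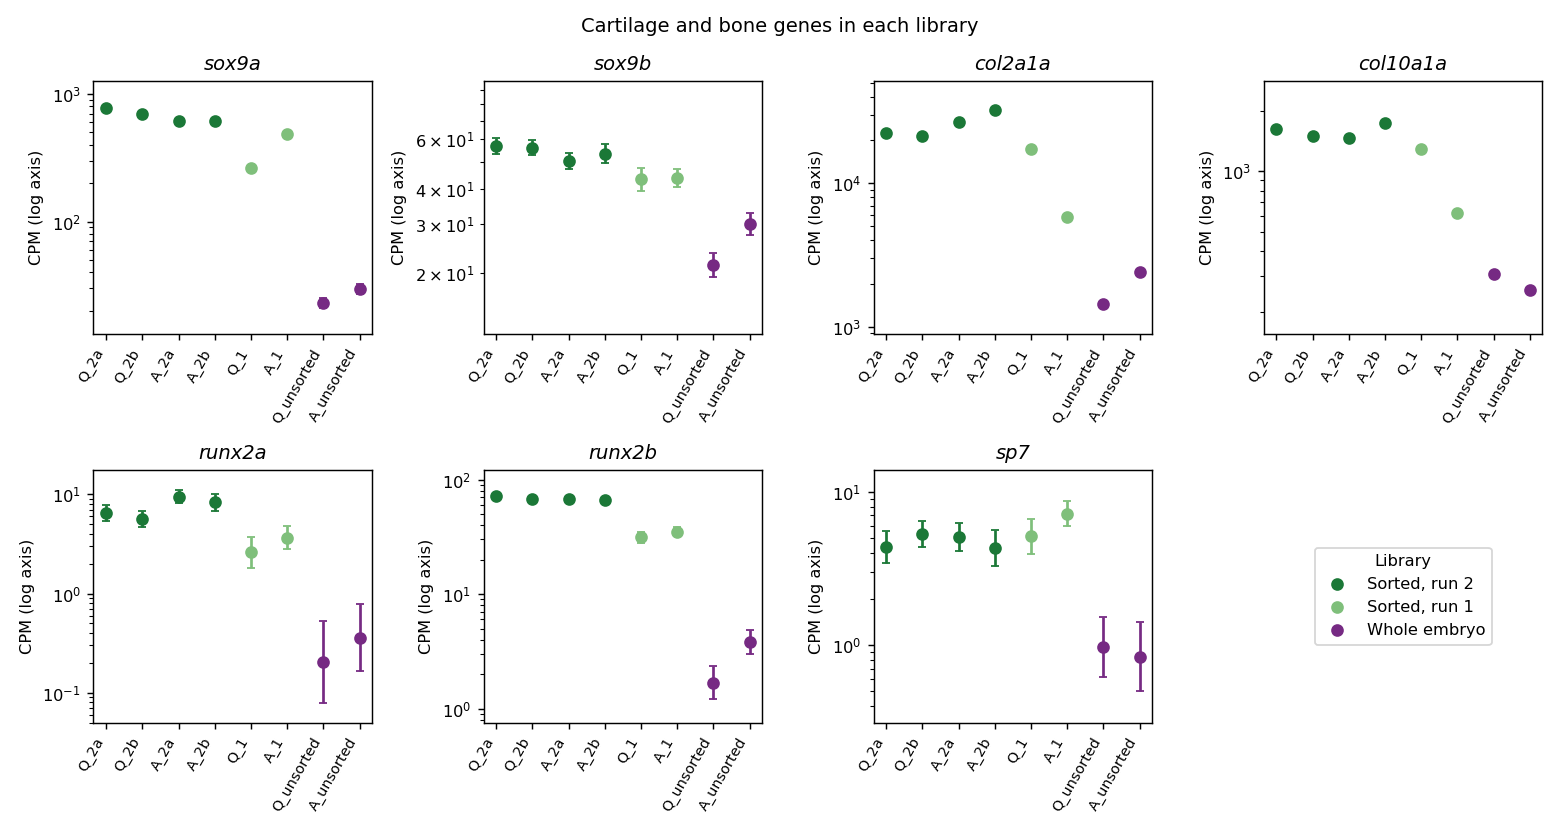
CPM on a log axis for the 7 genes in each of the 8 libraries, with 95% Wilson intervals of counting error as bars. Run 2 libraries (dark green), run 1 libraries (light green) and whole embryo libraries (purple) are shown from left to right, and every green point lies above both purple points, by 1.44-fold for sox9b and 8.75-fold for sox9a between the nearest libraries.

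sox9a, the Sox9 copy, was at 775 and 699 CPM in the RNeasy libraries and 619 and 612 CPM in the RNAqueous libraries of run 2, 261 CPM in Q_1 and 488 CPM in A_1, and 23.1 CPM in Q_unsorted and 29.9 CPM in A_unsorted. The groups did not overlap, and Q_1 was the lowest of the sorted libraries. The fold change over whole embryos was 25.1 in run 2 (log2 4.65 ± 0.39 SE, edgeR adjusted p = 1.88e-06) and 17.0 in run 1 (log2 4.09 ± 0.53 SE, edgeR adjusted p = 9.99e-05). Without A_1 the run 1 value was 3.43 and without Q_1 it was 4.56, both still called.

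sox9b, the other Sox9 copy, showed the smallest difference of the 7. Its level was 56.7, 56.0, 50.2 and 53.4 CPM in Q_2a, Q_2b, A_2a and A_2b, 43.2 CPM in Q_1 and 43.7 CPM in A_1, and 21.4 CPM in Q_unsorted and 30.0 CPM in A_unsorted. Sorted libraries lay within 1.31-fold of each other and did not overlap with whole embryos. The fold change was 2.07 in run 2 (log2 1.05 ± 0.29 SE, edgeR adjusted p = 0.00823) and 1.99 in run 1 (log2 0.99 ± 0.35 SE, edgeR adjusted p = 0.0347). This call was not stable. In run 2 it was lost without A_2 (log2 1.17, edgeR adjusted p = 0.0533), without Q_2 (log2 0.96, edgeR adjusted p = 0.0524) and without Q_unsorted (log2 0.94, edgeR adjusted p = 0.0503). In run 1 it was lost without the filter on low counts (edgeR adjusted p = 0.0601), without A_1 (log2 0.88, edgeR adjusted p = 0.0951), without A_unsorted (log2 1.12, edgeR adjusted p = 0.154) and without Q_unsorted (log2 0.88, edgeR adjusted p = 0.254).

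Most Sox9 reads of sorted cells fell on sox9a, and those of whole embryos fell about evenly on both copies. Of the reads on both copies, sox9a took 93.2%, 92.6%, 92.5% and 92.0% in Q_2a, Q_2b, A_2a and A_2b, 85.8% in Q_1 (95% Wilson interval 84.6% to 87.0%) and 91.8% in A_1 (91.2% to 92.4%), and 51.9% in Q_unsorted (48.6% to 55.2%) and 49.9% in A_unsorted (46.8% to 53.0%). The intervals cover counting error only, since the reads carry no molecular identifiers. These are shares of reads, not of molecules, because the copies can differ in length. All 6 sorted libraries lay above both whole embryo libraries. An exact permutation test of 4 sorted RNA samples against 2 whole embryos cannot pass 0.05, so none was made.

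**Figure D2:**
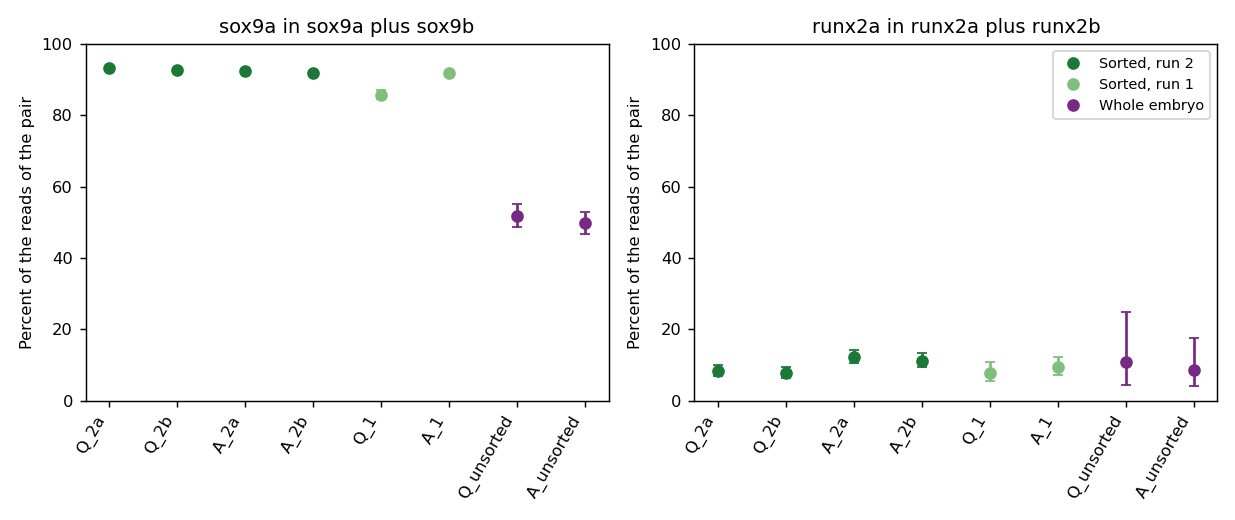
Percent of the reads of each gene pair that fell on the first copy, per library, with 95% Wilson intervals, from run 2 (dark green) and run 1 (light green) to whole embryos (purple). sox9a took 85.8% to 93.2% of its pair in sorted libraries and 49.9% to 51.9% in whole embryos, while runx2a took 7.67% to 12.3% of its pair in sorted libraries and 8.57% to 10.8% in whole embryos, with overlapping groups.

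col2a1a encodes the type II collagen chain of cartilage and is also made by the notochord sheath. It was at 22341 and 21394 CPM in Q_2a and Q_2b, 26917 and 32225 CPM in A_2a and A_2b, 17273 CPM in Q_1 and 5821 CPM in A_1, and 1436 CPM in Q_unsorted and 2418 CPM in A_unsorted. Reads on this 1 gene made up 3.22% of all gene reads in A_2b, the highest, 0.582% in A_1, the lowest sorted library, and 0.144% in Q_unsorted. A_1 stood 2.97-fold below Q_1, and the sorted libraries spanned 5.54-fold, the widest of the 7 genes.

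The fold change of col2a1a over whole embryos was 13.0 in run 2 (log2 3.71 ± 0.55 SE, edgeR adjusted p = 0.00013) and 6.81 in run 1 (log2 2.77 ± 0.73 SE, edgeR adjusted p = 0.00878). The run 1 value rests on Q_1 in part, since without it the log2 fold change was 1.97 and the call was lost (edgeR adjusted p = 0.0629). There were 28.8, 30.6, 43.5 and 52.7 reads of col2a1a per sox9a read in Q_2a, Q_2b, A_2a and A_2b, 66.1 in Q_1 and 11.9 in A_1, and 62.2 in Q_unsorted and 81.0 in A_unsorted. The sorted libraries overlapped with whole embryos in this ratio, since Q_1 lay between the whole embryos.

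col10a1a encodes type X collagen. It was at 1616 and 1489 CPM in Q_2a and Q_2b, 1458 and 1733 CPM in A_2a and A_2b, 1296 CPM in Q_1 and 619 CPM in A_1, and 308 CPM in Q_unsorted and 255 CPM in A_unsorted. A_1 was again the lowest sorted library, at 2.01-fold above the higher whole embryo. The fold change was 5.33 in run 2 (log2 2.41 ± 0.39 SE, edgeR adjusted p = 0.000257) and 3.81 in run 1 (log2 1.93 ± 0.52 SE, edgeR adjusted p = 0.00931). The run 1 call was lost without A_unsorted (log2 1.69, edgeR adjusted p = 0.117).

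There were 13.8, 14.4, 18.5 and 18.6 reads of col2a1a per col10a1a read in Q_2a, Q_2b, A_2a and A_2b, 13.3 in Q_1 and 9.40 in A_1, and 4.66 in Q_unsorted and 9.47 in A_unsorted. All run 2 libraries lay above both whole embryos in this ratio, whereas A_1 lay just under A_unsorted.

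The osteoblast factor runx2b was at 71.8, 67.4, 68.2 and 66.3 CPM in Q_2a, Q_2b, A_2a and A_2b, 31.3 CPM in Q_1 and 35.1 CPM in A_1, and 1.69 CPM in Q_unsorted and 3.84 CPM in A_unsorted. Run 2 libraries were within 1.07-fold of each other per kit, and both run 1 libraries lay below all of them. The fold change was 24.8 in run 2 (log2 4.63 ± 0.38 SE, edgeR adjusted p = 1.77e-06) and 14.4 in run 1 (log2 3.85 ± 0.45 SE, edgeR adjusted p = 4.72e-05).

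Its copy runx2a was lower in reads, with 103, 101, 166 and 99 reads in Q_2a, Q_2b, A_2a and A_2b, 28 reads in Q_1 and 54 in A_1, and only 4 reads in Q_unsorted and 6 in A_unsorted. In CPM these were 6.50, 5.64, 9.52 and 8.37 in run 2, 2.60 in Q_1 and 3.66 in A_1, and 0.205 in Q_unsorted (95% Wilson interval 0.0796 to 0.526) and 0.360 in A_unsorted (0.165 to 0.785). The groups did not overlap, although the whole embryo levels rest on few reads.

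The fold change of runx2a was 26.0 in run 2 (log2 4.70 ± 0.54 SE, edgeR adjusted p = 1.99e-05) and 13.0 in run 1 (log2 3.70 ± 0.71 SE, edgeR adjusted p = 0.0013). Its counts depend on how strand is treated, because reads that 1 gene shares with a gene on the other strand are left out when strand is ignored. Summing the strand columns gave 1.20 to 1.41 times as many reads in run 2 libraries and 1.00 to 1.04 times in run 1 libraries, and the log2 fold change over whole embryos became 4.90 in run 2 and 3.62 in run 1. The share of runx2a in its pair became 10.2% to 14.4% in run 2, 7.92% in Q_1 and 9.44% in A_1. In Q_unsorted it became 13.2% and in A_unsorted 8.57%, so the groups still overlapped. In the RefSeq table of another assembly, GRCz12tu, supt3h, cdc5l, LOC141378506 and LOC141378507 overlap runx2a and opn8a overlaps runx2b. The library protocol does not mark strand, so whether the added reads came from runx2a or from an overlapping gene cannot be told.

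sp7, the osteoblast factor that acts after Runx2, was at 4.36, 5.30, 5.05 and 4.31 CPM in Q_2a, Q_2b, A_2a and A_2b, 5.11 CPM in Q_1 and 7.18 CPM in A_1, and 0.972 CPM in Q_unsorted and 0.840 CPM in A_unsorted. The sorted libraries of both runs overlapped, and all lay at least 4.43-fold above the whole embryos. The fold change was 5.10 in run 2 (log2 2.35 ± 0.47 SE, edgeR adjusted p = 0.00122) and 7.90 in run 1 (log2 2.98 ± 0.55 SE, edgeR adjusted p = 0.000964).

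Reads of runx2b per sp7 read, the earlier factor over the later one, were 16.5, 12.7, 13.5 and 15.4 in Q_2a, Q_2b, A_2a and A_2b, 6.13 in Q_1 and 4.89 in A_1, and 1.74 in Q_unsorted and 4.57 in A_unsorted. The run 2 libraries lay above both run 1 libraries, and all of these above the whole embryos, with A_1 and A_unsorted close together. The whole embryo ratios rest on 33 runx2b and 19 sp7 reads in Q_unsorted and 64 and 14 reads in A_unsorted. No interval was computed for the ratios, so the order of A_1 and A_unsorted is not established.

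**Figure D3:**
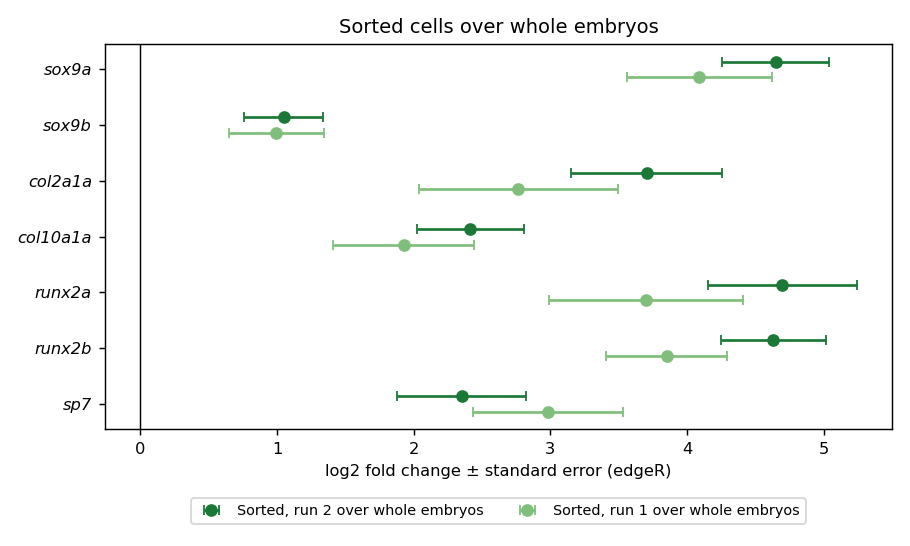
log2 fold change of the 7 genes over whole embryos, with edgeR standard errors as bars, for sorted run 2 (dark green) and sorted run 1 (light green). Points lie between 0.99 and 4.70, with sox9b the smallest in both runs, and sp7 is the only one of the 7 with a larger value in run 1 (2.98) than in run 2 (2.35).

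The kits were compared within sorted cells with run in the fit, and the runs with kit in the fit. Between the runs none of the 7 genes passed edgeR's test, beside 10.9% of 19639 tested genes, and 0 of 7 had an unadjusted p under 0.05, beside 4791 of the 19639. With DESeq2 none passed either. The log2 differences, run 2 over run 1, were 0.57 ± 0.55 SE for sox9a, -0.03 ± 0.45 for sox9b, 0.99 ± 0.57 for col2a1a, 0.46 ± 0.54 for col10a1a, 0.91 ± 0.47 for runx2a, 0.70 ± 0.45 for runx2b and -0.68 ± 0.46 for sp7. Leaving out 1 RNA sample at a time, which leaves no test, moved sox9a between -0.22 (without Q_1) and 1.34 (without A_2), so that its direction turned, and col2a1a between 0.18 (without A_1) and 1.79 (without Q_2). Missing the threshold does not show that the runs were alike. When the technical replicates were entered as separate libraries, runx2a (0.88, edgeR adjusted p = 0.0351) and runx2b (0.67, edgeR adjusted p = 0.0408) passed. In that fit 5218 of 19297 tested genes passed. It counts each RNA of run 2 more than once, so its p-values do not measure the spread between RNA samples. The run, the number of amplification cycles and the volume of RNA put into cDNA synthesis cannot be told apart.

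Between the kits, too, 0 of 7 genes passed edgeR's test, beside 0.117% of 19639 tested genes, and 0 of 7 passed that of DESeq2. An unadjusted p under 0.05 was found in 0 of 7 genes, beside 703 of the 19639. The log2 differences, RNeasy over RNAqueous, ran from -0.58 ± 0.47 SE for runx2a to 0.52 ± 0.57 for col2a1a. Leaving out 1 RNA sample at a time, without a test, moved col2a1a between -0.30 (without A_1) and 1.33 (without A_2) and sox9a between -1.14 (without Q_2) and 0.37 (without Q_1). In run 1 the RNeasy over RNAqueous ratio of all genes had a median log2 of 0.23 in CPM, and in run 2 of -0.09, so TMM-scaled ratios are given. They lay on opposite sides of 1 in run 2 and run 1 for 5 of 7 genes. The same share over all tested genes was not computed, so this count is not read as a trait of the 7 genes. The ratios were 0.820-fold in run 2 and 2.51-fold in run 1 for col2a1a, 1.30-fold in run 2 and 0.453-fold in run 1 for sox9a, 1.19-fold in run 2 and 0.837-fold in run 1 for sox9b, 1.12-fold in run 2 and 0.755-fold in run 1 for runx2b, and 1.12-fold in run 2 and 0.602-fold in run 1 for sp7. In both runs col10a1a lay above 1, at 1.08-fold in run 2 and 1.77-fold in run 1, and runx2a below 1, at 0.728-fold in run 2 and 0.602-fold in run 1. With 1 RNA sample per kit in each run this difference between the runs was not tested. Technical replicates of 1 RNA agreed within 1.22-fold for all 7 genes.

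**Figure D4:**
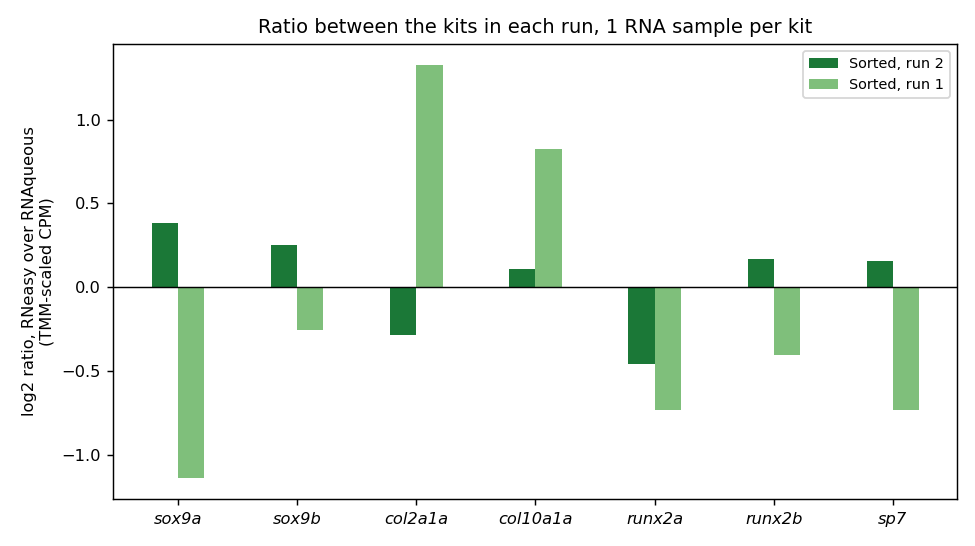
log2 ratio of RNeasy over RNAqueous for each gene, TMM-scaled CPM, with sorted run 2 in dark green and sorted run 1 in light green and 1 RNA sample per kit and run. In run 1 the bars lie between -1.14 for sox9a and 1.33 for col2a1a, and in run 2 between -0.46 for runx2a and 0.38 for sox9a.

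The genes of the same pathways were read from lists of cartilage and bone genes. The lists include the genes described above, so counts and medians restate these in part. sox9a and sox9b are among the chondrocyte transcription factors, col2a1a in the cartilage matrix and col10a1a in the hypertrophic cartilage list. runx2a, runx2b and sp7 are among the osteoblast transcription factors, and runx2a and runx2b in the runx family. The chondrocyte transcription factors rose together, with 6 of 6 called higher in both runs and a median log2 fold change of 2.93 in run 2. Beside the Sox9 copies, SOX6, a partner of Sox9, was lowest of the others at 2.36 ± 0.35 SE, and BARX1, a factor of jaw mesenchyme, was highest at 3.46 ± 0.33. SOX6 was at 390, 387, 480 and 490 CPM in Q_2a, Q_2b, A_2a and A_2b, 281 and 170 CPM in Q_1 and A_1 and 62.4 and 106 CPM in Q_unsorted and A_unsorted.

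Of 21 genes of the cartilage matrix, 17 were called higher in run 2, 1 lower and 3 not called, with a median log2 fold change of 3.24. In run 1, 18 were higher and 2 lower. acanb, an aggrecan gene, had the largest change at 4.72 ± 0.44 SE, followed by the gene listed as COL9A1, for a type IX collagen chain, at 4.09 ± 0.50. Another gene of that chain, col9a1b, went the other way. It was at -0.71 ± 0.35 in run 2, not called, and at -1.91 ± 0.39 in run 1, called lower (edgeR adjusted p = 0.00206). The smallest called increase was UCMA, a cartilage matrix protein gene, at 1.76 ± 0.30. Its copy ucmaa was not called in run 2, at -0.58 ± 0.40, but was called higher in run 1, at 1.54 ± 0.48. The gene listed as MATN3 (ENSDARG00000069245) was called lower, at -2.32 ± 0.34, with 22.9, 23.3, 42.7 and 41.2 CPM in Q_2a, Q_2b, A_2a and A_2b and 144 and 172 CPM in the whole embryos. It is a matrilin gene by its symbol, and which zebrafish copy it is was not given. Another gene with that symbol, ENSDARG00000069265, was not called.

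Of the hypertrophic cartilage list, 4 of 6 tested genes were higher in run 2, with a median of 2.58. mmp13a, a collagenase of hypertrophic cartilage, was at 123, 120, 114 and 113 CPM in Q_2a, Q_2b, A_2a and A_2b, 121 and 80.2 CPM in Q_1 and A_1 and 3.28 and 1.44 CPM in the whole embryos. Its log2 fold change of 5.55 ± 0.45 in run 2 was above that of all 7 genes. PTH1R, the receptor for parathyroid hormone-related protein, was at 2.78 ± 0.46. The hedgehog ligand ihhb was at 2.74 ± 0.67, with 2.46 CPM at most in run 2. At 0.154 CPM in Q_unsorted and 0.360 CPM in A_unsorted, ihhb passed the filter on low counts only through the sorted samples. Its copy ihha was not called, at 0.70 ± 0.33, and a gene listed as COL10A1 was not called, at 0.74 ± 0.68.

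The osteoblast transcription factors had 5 of 6 genes called higher in both runs, with medians of 2.25 in run 2 and 3.01 in run 1. After runx2a and runx2b the smallest called changes in run 2 were those of the homeobox factors DLX3, at 1.13 ± 0.29 SE, and DLX5, at 2.14 ± 0.34. msx2b was not called.

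Of 10 tested genes of bone matrix and mineralization, 9 were called higher and 1 lower in run 2, but 4 higher and none lower in run 1, where 6 were not called. The largest increases in run 2 were PANX3, a channel of osteoblasts and chondrocytes, at 2.67 ± 0.33, and spp1, osteopontin, at 1.88 ± 0.38. The smallest called increase was PHEX, at 0.80 ± 0.28 (edgeR adjusted p = 0.031). The gene called lower was mgp, matrix Gla protein, at -1.77 ± 0.68 (edgeR adjusted p = 0.0453), which was under 1.70 CPM in every library. At 0.126 to 0.338 CPM in run 2 and 0.665 and 0.960 CPM in whole embryos, mgp passed the filter on low counts there only through the whole embryos. In run 1 mgp had the opposite sign and was not called, at 0.92 ± 0.70. bglap, osteocalcin, a defining osteoblast marker, had no counted read in all 8 libraries, where 3 reads were worth 0.154 to 0.279 CPM. Reads on multiple loci or shared with an overlapping gene are not counted. Whether bglap lost reads in this way was not checked, so its RNA is not shown to be absent. This gene was singled out after its values were seen.

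All 5 genes of the runx family were called higher in run 2. Of these, runx2a and RUNX1 passed the filter on low counts only through the sorted samples. RUNX1 missed it narrowly in Q_unsorted. The smallest changes were RUNX1, a factor of blood cells, at 1.79 ± 0.62 (0.893 to 2.28 CPM in run 2, 0.409 and 0.420 CPM in whole embryos), and CBFB, the binding partner of Runx factors, at 1.95 ± 0.31. RUNX3 was at 2.86 ± 0.35. Among signals of the skeleton all 8 genes were called higher in run 2, of which bmp7a passed the filter on low counts only through the sorted samples. The largest fitted change was that of bmp7a, for which a bound is given below. GDF5, a joint factor, followed at 4.35 ± 0.43, with BMP4 the smallest at 1.82 ± 0.29. bmp7a had no read in the whole embryos and 0.753 ± 0.143 CPM (SD, n = 2 RNA samples) in run 2, at least 4.18-fold higher against the floor of 3 reads per library. The list's median was 2.76, or 2.31 with bmp7a at that bound. Of the osteoclast genes, 2 of 3 were called higher in run 2, CTSK at 1.13 ± 0.33 and ACP5 at 2.22 ± 0.52. The third, acp5b, went the other way without being called, at -1.18 ± 0.54 in run 2 and -0.53 ± 0.57 in run 1.

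**Figure D5:**
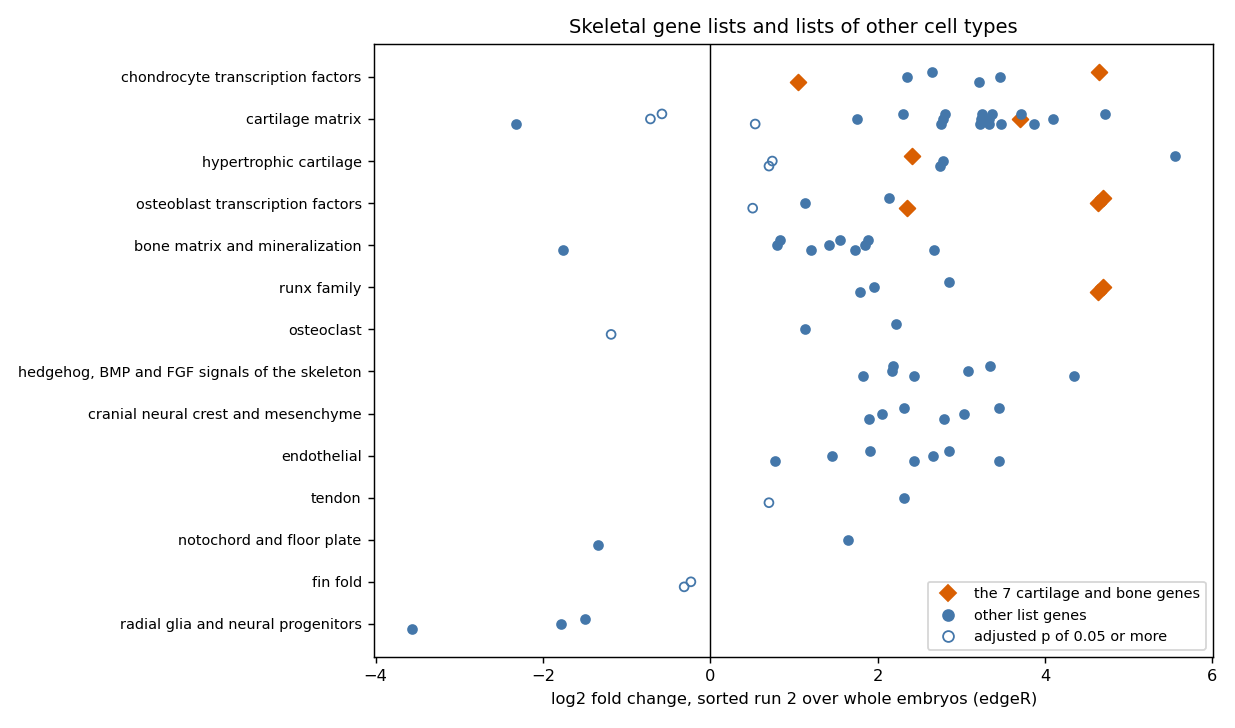
log2 fold change of sorted run 2 over whole embryos for the genes of each list, with the 7 cartilage and bone genes as orange diamonds, other list genes in blue, and genes at an adjusted p of 0.05 or more open. bmp7a, with no read in the whole embryos, is left out. The skeletal lists lie mostly right of 0 (medians of 1.13 for osteoclast genes to 3.24 for cartilage matrix), the neural crest and endothelial lists do too (2.55 and 2.43), and the radial glia list lies left of 0 (-1.78).

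Genes of the other cell types of the gate moved with the 7 genes. The list of cranial neural crest and mesenchyme had 6 of 6 tested genes called higher in run 2, twist1a and PRRX1 (ENSDARG00000033971) with the largest changes, at 3.45 ± 0.34 and 3.03 ± 0.33, and twist1b and SOX10 with the smallest, at 2.06 ± 0.30 and 1.89 ± 0.29. The summed level of this list was 1035 to 1188 CPM in run 2, 1118 to 1169 CPM in run 1 and 152 to 180 CPM in whole embryos. FOXD3 had no counted read in all 8 libraries, and whether its reads were lost in counting was not checked. The endothelial list had 7 of 7 called higher in run 2 and 6 of 7 in run 1, and its summed level was 468 to 619 CPM in run 2, 531 to 620 CPM in run 1 and 74.2 to 99.1 CPM in whole embryos. These counts and sums include FLI1, which made up 334 of 619 CPM in A_2a and 30.7 of 99.1 CPM in A_unsorted. The FLI1 promoter drives the reporter, so the rise of FLI1 itself was set by the gate. FLI1, at 3.45 ± 0.33, and EGFL7, at 2.85 ± 0.30, had the largest changes, and kdrl, at 1.45 ± 0.34, and cdh5, at 0.77 ± 0.30 (edgeR adjusted p = 0.0475), the smallest. The part of these cells in the levels of the 7 genes was not tested.

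Notochord cells also make type II collagen. tbxta, the notochord factor, was at 2.65, 1.95, 4.13 and 4.23 CPM in Q_2a, Q_2b, A_2a and A_2b, 1.58 and 1.29 CPM in Q_1 and A_1 and 8.96 and 6.66 CPM in the whole embryos, lower at -1.35 ± 0.43 in run 2. noto was at 0.307 CPM or less in every library. col8a1a of the same list was higher, at 1.64 ± 0.29, and the summed level of the list was 57.6 to 81.6 CPM in run 2, 10.1 to 30.2 CPM in run 1 and 27.9 to 28.8 CPM in whole embryos. Most of this sum was col8a1a in every library, at 55.6 to 77.4 CPM in run 2, so it mainly follows that gene. The part of notochord cells in the level of col2a1a was not tested. Radial glia of the fish brain are known to use sox9b. Their list had 3 of 3 genes called lower in run 2, and its summed level was 36.8 to 43.7 CPM in run 2, 29.5 to 63.6 CPM in run 1 and 227 to 253 CPM in whole embryos. GFAP had the largest fall, at -3.56 ± 0.32, before the neural progenitor factors SOX3, at -1.78 ± 0.29, and SOX2, at -1.49 ± 0.32. The part of radial glia in the level of sox9b was not tested. In the tendon list SCX was called higher at 2.31 ± 0.32, and in the fin fold list neither and1 nor and2 was called.

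By the smallest Euclidean distance between log2(CPM + 0.5) profiles over the 6 RNA samples, each centred on its own mean, the gene nearest to sox9a among 18553 genes was runx2b (0.758), followed by cd83 (0.759) and CEBPB (0.922). Nearest to runx2b were ENSDARG00000101258 (0.599), ABTB2 (0.697) and FOXC1 (0.712). For col2a1a they were MRC2 (0.461), ROR2 (0.552) and ADAMTS1 (0.570), and for col10a1a PRICKLE1 (0.313), TGFB3 (0.313) and ephb4b (0.320). For runx2a they were rasal3 (0.228), CHSY3 (0.299) and MAFK (0.359), for sp7 ENSDARG00000102116 (0.201), CLIC2 (0.269) and PDCD6 (0.279), and for sox9b DHX29 (0.133), CDK6 (0.183) and si:dkey-34m19.3 (0.196). Distances are smaller for genes that vary less, so they are not compared between the 7 genes. For genes with low levels they also depend on the added 0.5 CPM. It exceeds the whole embryo levels of runx2a, 0.205 CPM in Q_unsorted and 0.360 CPM in A_unsorted, and so shrinks its change. ENSDARG00000102116 was at 0 CPM in the whole embryos and 1.33 to 1.90 CPM in the sorted RNA samples, so its nearness to sp7 is uncertain. sox9b stood at rank 2897 from sox9a, the other copy of its pair, at a distance of 3.88.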

How the data were processed

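The authors aligned reads to GRCz10 with STAR (version 2 in the submitters' processing notes) in a 2-pass strategy and deposited whole-number counts per Ensembl gene without normalization, in columns that ignore strand or count each strand. Reads on multiple loci are not counted. The deposited counts that ignore strand were used. CPM is reads on a gene per 1000000 reads on genes. Technical replicates were summed per RNA sample.

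Tests used edgeR 4.0.16 in R 4.3.3 (quasi-likelihood, TMM, default filter on low counts, Benjamini-Hochberg adjustment over all tested genes, threshold 0.05). The fit was also run on data simulated for run 2 against whole embryos and for run 2 against run 1 only. Standard errors were derived from each log2 fold change and its F value. DESeq2 1.42.0, relative log expression (RLE) scaling, no filter, summed strand columns, separate libraries, other covariates and leaving out each RNA sample were alternatives. Intervals are 95% Wilson intervals. Python 3.11.15, pandas 2.3.3, scipy 1.17.1, numpy 2.4.6 and matplotlib 3.10.9 were used.

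The 7 genes and the lists were chosen with earlier results of these data known. From each list the 2 largest and 2 smallest called changes in run 2, the markers FLI1, kdrl and cdh5, and for each gene its 3 nearest profiles (mean of at least 1 CPM) are named. Some list genes that were not called or went another way are named beside them. A list gene that this rule would name is not reported here. Of 90 list symbols beside the 7 genes, 82 matched an identifier through the symbol table used, which often omits the letter of a zebrafish copy. 1 RNeasy library of sorted cells is labelled sample 2 in its title and sample 1 in its source, and was taken as run 1. Transcript lengths and sequences were not used here, so levels are not compared between genes.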

Additional observations from a re-analysis of the deposited data

Results flagged for a closer look

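In run 1 the RNeasy over RNAqueous log2 ratio of CPM was -0.90 for sox9a, -0.0165 for sox9b and 1.57 for col2a1a, and each had the opposite sign to all 4 pairs of a RNeasy and a RNAqueous library of run 2, where the ratios were 0.18 to 0.34 for sox9a, 0.07 to 0.17 for sox9b and -0.59 to -0.27 for col2a1a. The 4 pairs share 1 RNA sample per kit. With TMM scaling the log2 ratios of sox9b were 0.25 in run 2 and -0.26 in run 1, and 5 of 7 genes had opposite signs in the 2 runs. How many of all tested genes had opposite signs was not counted. The difference between the runs was not tested.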

How the results depend on the processing

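Of 77 fits of the 7 genes in run 2 against whole embryos, 74 kept the call, and of 63 in run 1 against whole embryos 56 did, with no sign changed. Leaving out 1 RNA sample gave 5572 to 10466 genes called in run 2 against whole embryos. In run 2 against run 1, 2149 genes were called, 1041 with DESeq2, 5218 with separate libraries (and 2 of the 7 genes) and 1414 without kit in the fit. Separate libraries count each RNA of run 2 more than once. Between the kits 23 were called, 11 with DESeq2 and 0 with run dropped from edgeR's fit, where 175 had an unadjusted p under 0.05. Over 70 fits of the 7 genes each, 6 changed sign between the runs and 14 between the kits. Those outside leave-one-out were all of sox9b. Between the runs it was 0.00892 without the filter and 0.00276 with the strand columns summed. Between the kits it was -0.0171 with DESeq2, -0.0169 with RLE scaling, -0.00567 with the strand columns summed and -0.00171 with run dropped. The cause was not tested. Of 21 group means of CPM, 6 moved by their SD or more with TMM-scaled library sizes and 4 with the strand columns summed. Of 6 mean shares of a copy in its pair, 1 moved so with the strand columns summed, that of runx2a in run 2.

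Kit as a replicate block was no pairing of the same animals. It gave 11718 genes called in run 2 and 7931 in run 1 against whole embryos, beside 11045 and 8670, and sox9b was not called in run 1 (0.99, edgeR adjusted p = 0.0693). Deviations of same-kit samples had a Spearman correlation across genes, which are not replicates, of 0.24 in run 2 and -0.12 in run 1. Leaving out 1 RNA sample in the comparisons of runs and kits left no residual degrees of freedom, so these are values without a test. Their ranges with a change of sign were, between the runs, -0.22 to 1.34 for sox9a and -0.31 to 0.24 for sox9b, and between the kits -1.14 to 0.37 for sox9a, -0.26 to 0.24 for sox9b, -0.30 to 1.33 for col2a1a, -0.41 to 0.16 for runx2b and -0.73 to 0.15 for sp7. Depth limits runx2a, with 4 and 6 reads in the whole embryos, and sp7, with 19 and 14.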
